A study of Mus musculus with 12 samples.

Results

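Dendritic cells take up antigen, carry it to lymph nodes and present it to T cells, and their subsets are told apart by a short set of marker genes. The 10 markers described here were chosen by name, with earlier results of these data known. They were Itgax, Flt3 and Zbtb46 for dendritic cells in general, and Xcr1, Clec9a and Batf3 for the cross-presenting subset known as conventional DC1. The others were Cd209a for monocyte-derived and DC2-like cells, Siglech for plasmacytoid cells, and Ccr7 and Fscn1 for mature cells on their way to the lymph node. Of 18193 genes named on the array, 9 were among these markers, read by 15 probe sets. No probe set was named for Clec9a, which was not analysed here. Each of the other markers was followed over 12 arrays.

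The arrays held RNA of whole subcutaneous tumours that grew in the right flank of female 129sv/ev mice after inoculation of 344SQ, a lung adenocarcinoma line of the mouse. Tumours labelled Res came from 344SQ cells resistant to anti-PD-1 and tumours labelled Sen from the parental 344SQ cells. Anti-PD-1 blocks an inhibitory receptor of T cells, and the control was IgG. Every mouse was given its antibody, 10 mg/kg each time, on day 4 and again on day 7 of tumour growth. Tumours were taken on day 11. The 4 groups were therefore Res+PD1 (resistant tumours, anti-PD-1), Res+IgG (resistant tumours, control IgG), Sen+PD1 (parental tumours, anti-PD-1) and Sen+IgG (parental tumours, control IgG), with 3 arrays each. The labels name 1 resistant population of cells, so a difference between the lines is one between these tumours. The labels give 5 mice per group and do not say which mice lie behind an array, so p-values measure the spread between these arrays only.

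The design crosses the lines with the antibodies. It asks how resistant tumours differ from parental tumours under each antibody, and whether anti-PD-1 changes either. Values are log2 expression, on which 1 unit is a 2-fold difference, and the lower quartile of the arrays lay between 3.27 and 3.36. A gene was called where limma's adjusted p, taken over 15493 genes, was under 0.05. The arrays Sen+IgG 1 and Sen+PD1 3 lay at opposite ends of the second principal component, which carried 19.1% of the variance. Changes of calls without them are given for the markers and for the lists of dendritic cell, ligand, receptor and MHC class II genes. Calls in the other lists were not recounted without them. The 3' minus 5' signal of the Gapdh control probe sets, a sign of RNA integrity, was -0.03 to 0.09 in resistant and 0.14 to 0.38 in parental tumours. The lines did not overlap in it, and its part in the results below was not tested.

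Dendritic cells grow from bone marrow precursors under FLT3 ligand, and the factor BATF3 is needed for the DC1 subset. On maturation they begin to make the chemokine receptor CCR7 and migrate. In tumours, DC1 cells are known for priming cytotoxic T cells, and mouse models have tied them to the response to anti-PD-1. Whole tumour RNA holds the transcripts of all cells, so fewer cells of a type and less RNA per cell cannot be told apart.

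The promoters of 2 of the general markers are shown because they hold the same motif upstream of a transcript start. By the probe set that stands for each gene, Itgax was called between the lines and Zbtb46 was not. Another Zbtb46 probe set, 1454884_at, was lower in resistant tumours under anti-PD-1, with a difference of -0.56 (limma adjusted p = 0.0279). Windows run from 250 bases before to 50 bases after 1 transcript start per gene, from RefSeq on GRCm38.p6. That start lies 24 bases inside the gene's span for Itgax and 68874 bases inside it for Zbtb46, so the Zbtb46 window belongs to an internal start and not to the gene's outer end. The capitals mark TGANTCA, the binding motif of the AP-1 and BATF family of factors, searched on both strands.
Itgax, chr7:128129300-128129599, plus strand: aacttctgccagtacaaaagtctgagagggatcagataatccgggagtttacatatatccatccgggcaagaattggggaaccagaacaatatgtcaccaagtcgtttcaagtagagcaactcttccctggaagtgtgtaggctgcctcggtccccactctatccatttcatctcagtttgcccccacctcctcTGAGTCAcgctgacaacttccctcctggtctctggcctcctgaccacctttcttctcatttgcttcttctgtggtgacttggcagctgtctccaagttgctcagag
Zbtb46, chr2:181424339-181424638, minus strand: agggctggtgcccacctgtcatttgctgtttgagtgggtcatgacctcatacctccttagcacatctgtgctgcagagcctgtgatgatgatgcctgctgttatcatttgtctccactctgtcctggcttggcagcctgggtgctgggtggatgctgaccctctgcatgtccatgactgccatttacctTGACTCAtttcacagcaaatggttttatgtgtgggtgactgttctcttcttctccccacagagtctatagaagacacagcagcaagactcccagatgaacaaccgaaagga
In Itgax the match lies from base -56 to base -50 relative to that transcript start, and in Zbtb46 from base -61 to base -55 relative to its internal start. Promoter windows were matched for 9 of the 10 markers by symbol, and 2 of these 9 held the motif, against 7.81% of 32851 mouse promoter windows of the same length. The core motif of PU.1, GAGGAA, did not overlap with these matches and was present in the windows of Batf3 and Siglech, which is 2 of 9, against 28.3% of all windows. A match describes the letters of the window and not a bound site.

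Itgax was the marker that separated the tumours. It encodes CD11c, an integrin chain found on most dendritic cells and on many tumour macrophages. Its log2 level was 4.39, 3.99 and 4.61 in Res+PD1 tumours, 4.63, 3.89 and 4.17 in Res+IgG tumours, 5.22, 5.99 and 6.11 in Sen+PD1 tumours and 4.86, 5.54 and 5.51 in Sen+IgG tumours. All 6 resistant arrays lay below all 6 parental arrays, the highest resistant value being 4.63 and the lowest parental value 4.86. Itgax was 1 of 8 tested markers without overlap between the 6 resistant and the 6 parental arrays (12.5%), against 17.8% of all genes.

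Under control IgG, Itgax averaged 4.23 ± 0.37 in resistant and 5.30 ± 0.38 in parental tumours (SD, n = 3 each). The difference was -1.07 (SE 0.28, 95% interval -1.69 to -0.46, limma adjusted p = 0.0264). It was the only marker called of the 8 tested, against 16.2% of all genes in that comparison. Under anti-PD-1 it averaged 4.33 ± 0.31 in resistant and 5.77 ± 0.48 in parental tumours (SD, n = 3 each), a difference of -1.44 (SE 0.28, 95% interval -2.06 to -0.83, limma adjusted p = 0.00296). Here 2 of the 8 markers were called, Itgax and Ccr7, against 33.5% of all genes. Averaged over the antibodies the difference was -1.26 (SE 0.20, limma adjusted p = 0.000626), and Itgax was again the only marker called, against 40.3% of all genes. Over all arrays the count of markers called was below the background in each of these comparisons. Without Sen+IgG 1 and Sen+PD1 3 the count was 2 under IgG, where Batf3 was added (25%, against 19.1% of all genes). It was 3 under anti-PD-1, where Fscn1 was added (37.5%, against 31.6%), and 3 on average, where both were added (37.5%, against 42.1%).

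The call under IgG depended on single arrays. It was lost when Sen+IgG 2 was left out (difference -0.96, adjusted p = 0.0871), when Sen+IgG 3 was left out (-0.97, adjusted p = 0.0839), when Res+IgG 2 was left out (-0.90, adjusted p = 0.1) and when Res+IgG 3 was left out (-1.04, adjusted p = 0.0621), each by limma over all genes. The direction was kept in all 24 alternatives, and the call in 19. The difference averaged over the antibodies was called in all 23 alternatives run, from -1.40 to -0.70.

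**Figure D1:**
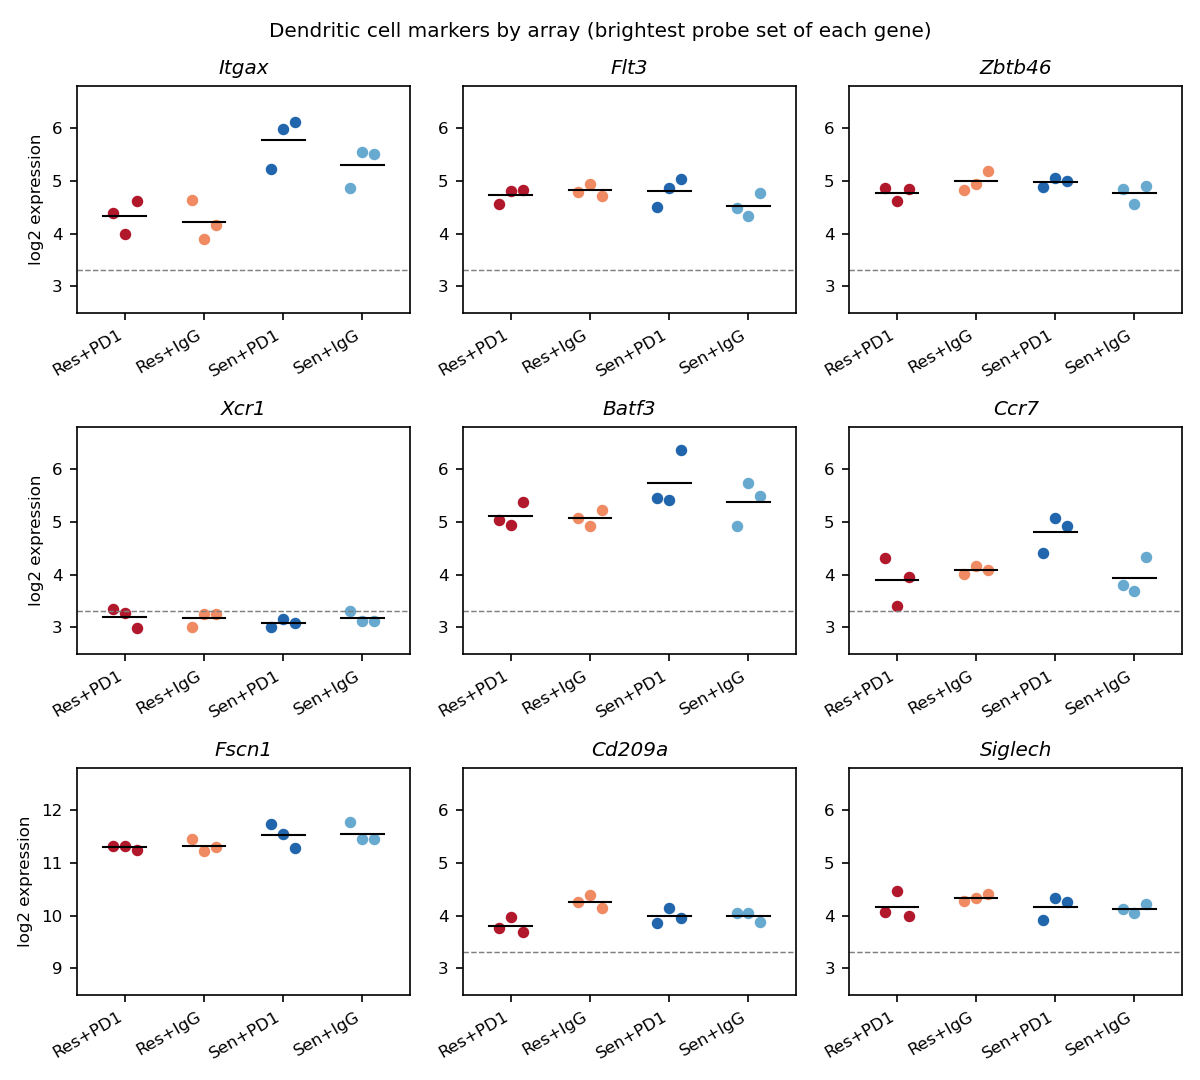
Log2 expression (y axis) of the probe set that stands for each of the 9 markers on the array, by group (x axis); points are arrays, short lines are group means and the dashed line is the filter at 3.32. The Fscn1 panel has its own y range. Itgax in resistant tumours stays at or below 4.63 and in parental tumours at or above 4.86, Ccr7 is highest in Sen+PD1, and Xcr1 lies around the filter.

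The leukocyte list differed in the same direction as Itgax. The mean log2 level of 8 genes that leukocytes share, such as Ptprc, which encodes CD45, ran from 7.08 to 7.94 in resistant and from 7.36 to 8.93 in parental tumours. Averaged over the antibodies it differed by -0.56 (exact permutation test, two-sided, p = 0.0498, adjusted p = 0.333 over 90 such tests). Macrophage genes, whose cells can also carry CD11c, ran from 7.72 to 8.48 in resistant and from 7.56 to 8.7 in parental tumours, a difference of 0.06 (exact permutation p = 0.758). After each array's leukocyte mean was subtracted, Itgax ran from -3.77 to -2.90 in resistant and from -2.82 to -2.42 in parental tumours. The share of all genes without overlap between the lines was not counted on that scale, and the part of leukocyte content in the Itgax values was not tested. On that scale, chosen after the markers' values were seen, every gene's difference shifts up by the leukocyte list's own difference, which was -0.22 under IgG, -0.90 under anti-PD-1 and -0.56 on average. The averaged difference of Itgax was then -0.70 (SE 0.29, limma adjusted p = 0.037). The differences of -0.85 under IgG (adjusted p = 0.57) and -0.54 under anti-PD-1 (adjusted p = 0.208) were not called on it. On that scale limma gave all tested markers the same SE, 0.41 for a pair of groups and 0.29 on average. These p-values, and those on that scale below, therefore do not measure each marker's own spread. Calls on it were 312 of 15493 genes under IgG and 9997 under anti-PD-1.

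Anti-PD-1 itself left Itgax without a called change in either line. The difference between anti-PD-1 and IgG was 0.10 in resistant tumours (95% interval -0.52 to 0.72) and 0.47 in parental tumours (95% interval -0.15 to 1.09). The interaction, which tests whether the antibody effect differs between the lines, was -0.37 (SE 0.40, limma adjusted p = 0.643). The wide intervals allow a change of about 1 unit in parental tumours.

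Ccr7 was highest in the parental tumours given anti-PD-1. It encodes the receptor that guides mature dendritic cells, and also naive and central memory T cells, towards lymphoid tissue. Its log2 level was 4.31, 3.40 and 3.96 in Res+PD1 tumours, 4.02, 4.17 and 4.08 in Res+IgG tumours, 4.41, 5.08 and 4.92 in Sen+PD1 tumours and 3.81, 3.69 and 4.33 in Sen+IgG tumours. The Sen+PD1 arrays lay above every array of the other groups, while those groups overlapped among themselves.

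Under anti-PD-1, Ccr7 averaged 3.89 ± 0.46 in resistant and 4.80 ± 0.35 in parental tumours (SD, n = 3 each). The difference was -0.91 (SE 0.24, 95% interval -1.45 to -0.38, limma adjusted p = 0.0147). Under IgG it was 0.15 (95% interval -0.39 to 0.68, adjusted p = 0.706). The call under anti-PD-1 was lost without Sen+PD1 2 (-0.78, adjusted p = 0.0531) and without Res+PD1 2 (-0.67, adjusted p = 0.0548). Relative to the leukocyte mean the difference was -0.01 (SE 0.41, adjusted p = 0.978).

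In parental tumours Ccr7 averaged 4.80 ± 0.35 under anti-PD-1 and 3.94 ± 0.34 under IgG (SD, n = 3 each). The difference of 0.86 (SE 0.24, 95% interval 0.33 to 1.39) missed the threshold after adjustment in limma (adjusted p = 0.0736). Without Sen+PD1 1, the lowest array of its group, it was 1.06 (adjusted p = 0.0435). None of the 8 markers was called in this comparison, against 3.5% of all genes, and 1, Ccr7, had an unadjusted p under 0.05. Ccr7 was the only marker whose arrays did not overlap there, 12.5% of those tested, against 22.6% of all genes. The interaction was -1.06 (SE 0.34, 95% interval -1.81 to -0.31, limma adjusted p = 0.189). No gene of the 15493 passed that test (0%), 3 of the 8 markers and 2713 genes had an unadjusted limma p under 0.05, and a fit of 28634 single probe sets gave 2.

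The T cell list, whose cells can carry CCR7, had the same sign of difference as Ccr7 under anti-PD-1 and the opposite sign under IgG. Its mean over 10 genes was 4.39 in Res+PD1 and 5.12 in Sen+PD1 tumours (difference -0.73, exact permutation p = 0.1, the smallest possible). Under IgG it was 4.40 in resistant and 4.81 in parental tumours (difference -0.41, exact permutation p = 0.3), where 8 of 10 genes had negative differences and Ccr7 a positive one of 0.15. Over both antibodies the list mean ran from 4.29 to 4.53 in resistant and from 4.38 to 5.53 in parental tumours, a difference of -0.57 averaged over the antibodies (exact permutation p = 0.00866, adjusted p = 0.195 over 90 tests). Under anti-PD-1, 3 of the 10 T cell genes were called lower in resistant tumours, Il7r at -1.78, Cd3g at -1.67 and Cd3d at -1.17, and 0 higher. Of all genes, 11.9% were called lower there and 21.6% higher. The part of T cells in the Ccr7 values was not tested.

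**Figure D2:**
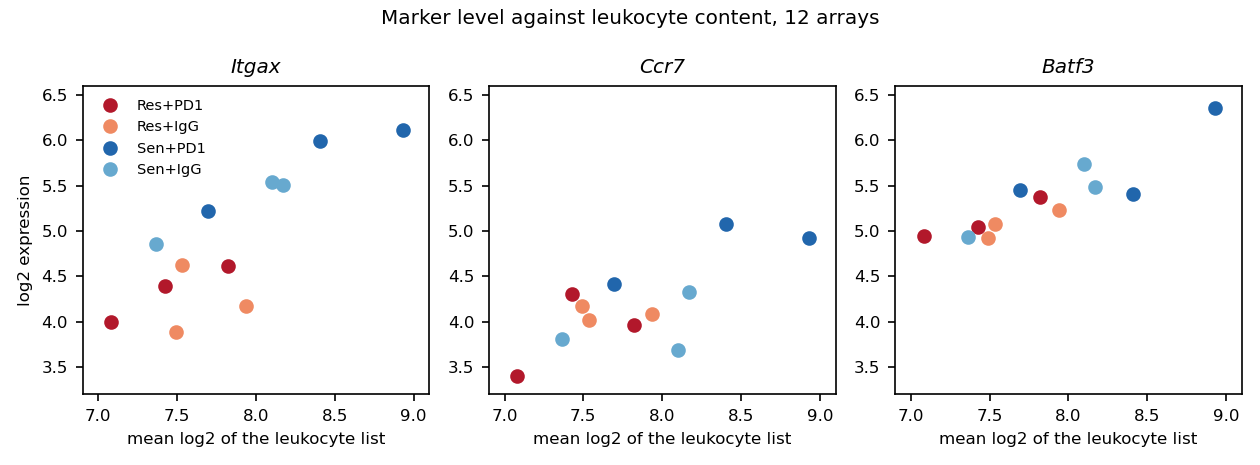
Log2 expression of Itgax, Ccr7 and Batf3 (y axis) against the mean log2 level of the leukocyte list (x axis); each point is 1 of 12 arrays, coloured by group. Resistant arrays lie between 7.08 and 7.94 on the x axis and parental arrays between 7.36 and 8.93, and Itgax of all resistant arrays lies below that of all parental arrays.

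Batf3, the transcription factor on which DC1 cells depend, was 5.04, 4.94 and 5.37 in Res+PD1 tumours, 5.08, 4.92 and 5.23 in Res+IgG tumours, 5.45, 5.41 and 6.36 in Sen+PD1 tumours and 4.93, 5.74 and 5.49 in Sen+IgG tumours. Under anti-PD-1 the highest resistant value was below the lowest parental one, by 5.37 against 5.41. The line groups overlapped under IgG. The difference was -0.62 under anti-PD-1 (SE 0.26, 95% interval -1.20 to -0.05, limma adjusted p = 0.0895), -0.31 under IgG (95% interval -0.89 to 0.27) and -0.47 averaged over both (SE 0.19, adjusted p = 0.0652). None of these passed, and array Sen+PD1 3 held the highest value at 6.36. Without Sen+PD1 3 the difference under anti-PD-1 shrank to -0.31 and was not called, the smallest when single arrays were left out. Without that array and Sen+IgG 1, the difference was -0.43 averaged over the antibodies (limma adjusted p = 0.00905) and -0.54 under IgG (adjusted p = 0.0313). Relative to the leukocyte mean the difference under anti-PD-1 was 0.28 (adjusted p = 0.517).

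Xcr1, the chemokine receptor by which DC1 cells find XCL1-producing lymphocytes, was at the lower edge of the array. Its values were 3.34, 3.27 and 2.98 in Res+PD1 tumours, 3.00, 3.26 and 3.25 in Res+IgG tumours, 3.00, 3.16 and 3.08 in Sen+PD1 tumours and 3.31, 3.13 and 3.12 in Sen+IgG tumours. Only 1 of 12 arrays was above 3.32, the level set as the filter on dim genes, so Xcr1 was left out of the test, and its groups overlapped. With Clec9a not analysed, Batf3 was the only DC1 marker of the 10 that was tested.

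Flt3, the growth factor receptor of dendritic cell precursors, was 4.57, 4.81 and 4.82 in Res+PD1 tumours, 4.79, 4.95 and 4.72 in Res+IgG tumours, 4.51, 4.86 and 5.04 in Sen+PD1 tumours and 4.49, 4.34 and 4.77 in Sen+IgG tumours. All 4 groups overlapped within 1 unit. The line difference was -0.07 under anti-PD-1 (95% interval -0.40 to 0.26) and 0.29 under IgG (95% interval -0.04 to 0.61, adjusted p = 0.207). Relative to the leukocyte mean, with that scale's upward shift and shared SE, Flt3 was higher in resistant tumours. The difference was 0.67 averaged over the antibodies (SE 0.29, limma adjusted p = 0.0424).

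Zbtb46, a transcription factor that marks conventional dendritic cells and is also found in endothelium, has 4 probe sets, and they did not move together. The brightest gave 4.87, 4.62 and 4.85 in Res+PD1 tumours, 4.83, 4.95 and 5.19 in Res+IgG tumours, 4.89, 5.06 and 4.99 in Sen+PD1 tumours and 4.85, 4.56 and 4.91 in Sen+IgG tumours. Its line difference was -0.20 under anti-PD-1 (95% interval -0.47 to 0.07, limma adjusted p = 0.234) and 0.22 under IgG (95% interval -0.05 to 0.49). A second probe set, 1454884_at, gave 3.98, 3.99 and 3.72 in Res+PD1 tumours, 3.83, 3.55 and 3.99 in Res+IgG tumours, 4.16, 4.49 and 4.71 in Sen+PD1 tumours and 3.72, 4.10 and 4.23 in Sen+IgG tumours. In the fit of single probe sets it was lower in resistant tumours under anti-PD-1, with a difference of -0.56 (SE 0.17, limma adjusted p = 0.0279), where 34.5% of all probe sets were called. Averaged over the antibodies it differed by -0.39 (SE 0.12, adjusted p = 0.0242), where 40.8% were called. Probe set 1429168_at differed by 0.08 under anti-PD-1 (adjusted p = 0.558), and 1453856_at exceeded 3.32 on 2 arrays and was not tested. The mean of 7 endothelial genes was 6.10 in Res+PD1, 6.49 in Res+IgG, 6.41 in Sen+PD1 and 5.65 in Sen+IgG tumours. Their median interaction was -1.13, with an unadjusted limma p under 0.05 for all 7 and 0 called, beside an interaction of -0.42 for the brightest Zbtb46 probe set (adjusted p = 0.253). The part of endothelium in the Zbtb46 values was not tested.

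Fscn1 encodes fascin, which bundles actin in the projections of mature dendritic cells and is also made by many carcinoma cells. Its brightest probe set gave 11.33, 11.32 and 11.25 in Res+PD1 tumours, 11.46, 11.22 and 11.30 in Res+IgG tumours, 11.74, 11.55 and 11.28 in Sen+PD1 tumours and 11.77, 11.45 and 11.45 in Sen+IgG tumours. The groups overlapped, and the line difference was -0.22 under anti-PD-1 (SE 0.13, limma adjusted p = 0.2) and -0.23 averaged over the antibodies (SE 0.09, adjusted p = 0.0649). Without Sen+IgG 1 and Sen+PD1 3 these were called, at -0.35 (adjusted p = 0.0212) and -0.23 (adjusted p = 0.0194).

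The dimmer probe sets of Fscn1 pointed the other way. Probe set 1416516_at gave 6.01, 5.96 and 5.77 in Res+PD1 tumours, 5.72, 5.95 and 5.43 in Res+IgG tumours, 5.54, 5.17 and 5.15 in Sen+PD1 tumours and 5.94, 5.23 and 5.78 in Sen+IgG tumours. It was higher in resistant tumours under anti-PD-1 by 0.63 (SE 0.19, limma adjusted p = 0.0247 over single probe sets), and 1416515_at differed by 0.60 (SE 0.23, adjusted p = 0.0639). The second brightest, 1448378_at, differed by -0.20 (adjusted p = 0.226). No direction is therefore given for Fscn1 between the lines.

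**Figure D3:**
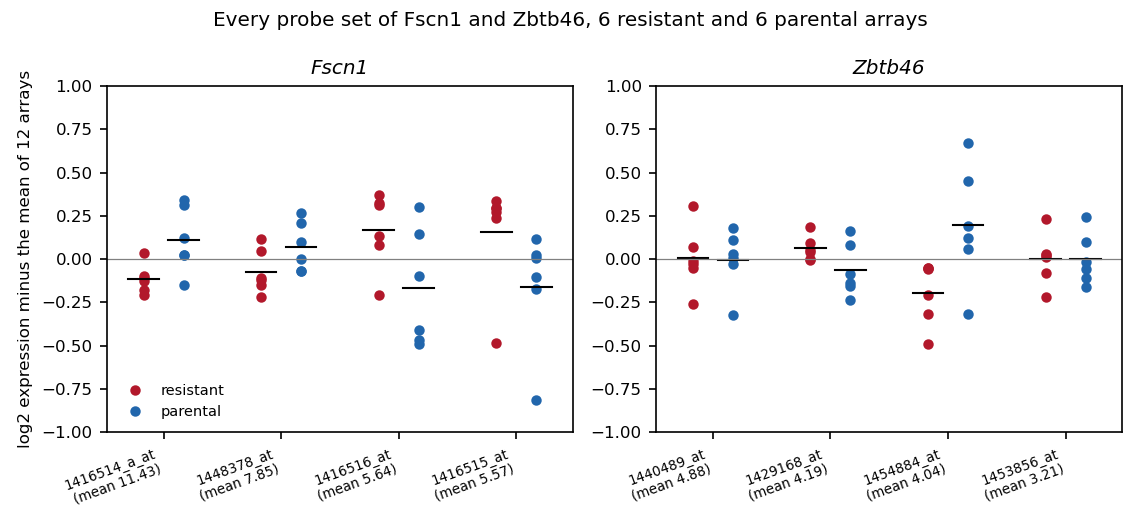
Log2 expression minus the mean of the 12 arrays (y axis) for each probe set of Fscn1 and Zbtb46 (x axis, with its mean level); red points are the 6 resistant arrays, blue points the 6 parental arrays and short lines their means. For Fscn1 the 2 brighter probe sets have lower means in resistant tumours and the 2 dimmer ones higher means, and for Zbtb46 the largest gap is in 1454884_at.

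Cd209a, a lectin of the DC-SIGN family used as a marker of monocyte-derived dendritic cells, was 3.77, 3.97 and 3.69 in Res+PD1 tumours, 4.25, 4.40 and 4.15 in Res+IgG tumours, 3.86, 4.15 and 3.96 in Sen+PD1 tumours and 4.05, 4.05 and 3.88 in Sen+IgG tumours. In resistant tumours every anti-PD-1 array lay below every IgG array. The difference was -0.46 (SE 0.11, 95% interval -0.69 to -0.22), with the 13th smallest p of the 15493 genes, and it was not called after adjustment in limma (adjusted p = 0.896). No marker and no gene was called in that comparison (0%), while 1 marker and 738 genes had an unadjusted limma p under 0.05, which is 4.76%, and the fit of single probe sets called 0 as well. Cd209a was the only one of 8 markers without overlap there (12.5%), against 14.2% of all genes. In parental tumours the antibody difference was -0.003 (95% interval -0.24 to 0.23), and the interaction was -0.45 (SE 0.15, adjusted p = 0.195). Resistant tumours exceeded parental ones under IgG by 0.27 (SE 0.11, 95% interval 0.04 to 0.51, adjusted p = 0.106).

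Siglech, a sialic acid-binding receptor of plasmacytoid dendritic cells that microglia and some macrophages also carry, was 4.06, 4.46 and 3.99 in Res+PD1 tumours, 4.27, 4.34 and 4.42 in Res+IgG tumours, 3.92, 4.33 and 4.26 in Sen+PD1 tumours and 4.12, 4.05 and 4.22 in Sen+IgG tumours. The resistant arrays lay above the parental arrays under IgG, by 4.27 against 4.22 at the nearest, and the groups overlapped under anti-PD-1. The line difference was 0.00 under anti-PD-1 (95% interval -0.30 to 0.30) and 0.21 under IgG (95% interval -0.09 to 0.51, limma adjusted p = 0.302). Relative to the leukocyte mean, again with the shift and the shared SE, it was higher in resistant tumours under anti-PD-1 by 0.90 (SE 0.41, adjusted p = 0.0432). On that scale 9997 of 15493 genes were called in this comparison, in either direction.

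Taken over the 8 tested markers, the median difference between resistant and parental tumours was 0.18 under IgG and -0.21 under anti-PD-1, against medians of 0.067 and 0.073 over all genes. Under IgG 5 differences were positive and 3 negative. Under anti-PD-1 none was positive and 7 were negative. Arrays did not overlap for 3 of 8 markers under IgG (37.5%, against 38.8% of all genes) and for 4 of 8 under anti-PD-1 (50%, against 45.7%). These shares were near the background. The comparison under anti-PD-1 shares its Sen+PD1 arrays with that of the antibodies in parental tumours, where the markers' median was 0.24 against -0.007 for all genes. In resistant tumours the median antibody difference was -0.13 against 0.03.

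**Figure D4:**
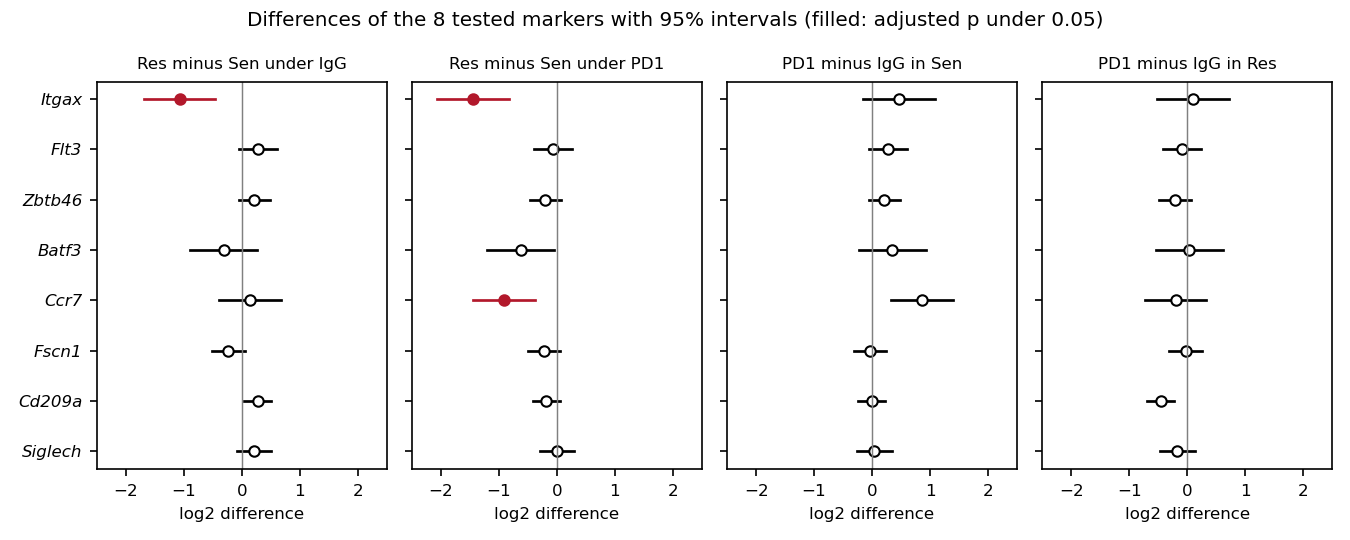
Log2 differences (x axis) of the 8 tested markers (y axis) in 4 comparisons, with 95% intervals as bars; filled red points have an adjusted p under 0.05. The filled points are Itgax under IgG at -1.07 and Itgax and Ccr7 under anti-PD-1 at -1.44 and -0.91, and neither comparison of the antibodies has one.

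Further genes of the same subsets were read from lists of known markers. In the resistant tumours under anti-PD-1, 21.6% of all genes were called higher and 11.9% lower than in the parental tumours. Of 12 further DC1 genes tested, 3 were lower and 0 higher: Ly75, the endocytic receptor DEC-205, at -1.83 (SE 0.29), Irf8, a transcription factor of DC1 and plasmacytoid cells, at -1.61 (SE 0.46), and Naaa, a lysosomal amidase, at -0.85 (SE 0.16). Their list median was -0.06, since the other 9 lay on both sides of 0. Ly75 and Naaa were also lower under IgG, at -1.86 and -0.79, where 7.31% of all genes were lower and 8.93% higher, and Cd24a differed by -0.31 (limma adjusted p = 0.0621). Without Sen+IgG 1 and Sen+PD1 3, 4 were lower under IgG, where Irf8 and Tlr3 were added, against 8.24% of all genes. LY75 is also made by epithelial cells.

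Of 11 further DC2 and monocyte-derived genes, 2 were lower in resistant tumours under anti-PD-1 and 0 higher. They were Sirpa, the receptor for CD47 on myeloid cells, at -1.21 (SE 0.28), and Itgam, which encodes CD11b, at -0.66 (SE 0.20). The next smallest p was that of Tmem176b, which differed by -0.20 and was not called. The list median was -0.32. Under IgG limma called 0 of the DC2 genes, and 5 had an unadjusted p under 0.05. They included Clec10a, a lectin of DC2 cells and macrophages, at 1.66 (SE 0.52, limma adjusted p = 0.0518), Mgl2, a related lectin, at -0.86 (adjusted p = 0.063) and Fcer1a, a chain of the IgE receptor, at -0.80 (adjusted p = 0.133). Without Sen+IgG 1 and Sen+PD1 3, Mgl2 and Fcer1a were called lower, so the count of 0 rests on those arrays.

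Of 13 further plasmacytoid genes only Bst2, a tetherin induced by interferon in many cells, was lower in resistant tumours under anti-PD-1, at -1.65 (SE 0.49), with a list median of -0.28. Lair1, an inhibitory receptor of many leukocytes, differed by -0.63 (limma adjusted p = 0.0635) and Tlr9, which senses DNA, by 0.24 (adjusted p = 0.112). Under IgG limma called 0, and 2 had an unadjusted p under 0.05, Lair1 at -0.76 (adjusted p = 0.0521) and Tlr9 at 0.26 (adjusted p = 0.132). Tcf4, a transcription factor of plasmacytoid cells, differed by 0.45 there and was not called. Without the same arrays Irf7, Bst2 and Lair1 were called lower under IgG, which is 3 of 13.

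The genes of mature and migrating dendritic cells were read next. Under anti-PD-1, 9 of 21 were lower in resistant tumours and 1 was higher, with a list median of -0.53 against 0.073 over all genes. Cd274, which encodes the PD-1 ligand PD-L1 and is also made by tumour cells, differed by -2.91 (SE 0.55, limma adjusted p = 0.00255). Cd83, a surface marker of maturity, differed by -1.48 (SE 0.29), Traf1, an adaptor of TNF receptors, by -1.35 (SE 0.20), and Relb, an NF-kappaB subunit that dendritic cells need to mature, by -0.85 (SE 0.09). Serpinb9, Birc3, Pdcd1lg2, Ebi3 and Cd86 were lower too, with differences of -1.26, -0.91, -0.56, -0.52 and -0.90. Nudt17 was higher by 1.09 (SE 0.12). Ccl22 and Ccl17, chemokines of mature dendritic cells, differed by -0.23 and 0.07 and were not called. Without Sen+IgG 1 and Sen+PD1 3, the list had 7 lower and 1 higher (11.8% and 19.7% of all genes), and Cd86 and Ebi3 were lost. Under IgG, Serpinb9 and Pdcd1lg2 were lower at -1.25 and -0.66, and Nudt17 and Aldh1a2, an enzyme of retinoic acid synthesis, were higher at 1.00 and 1.20. Without the same arrays 6 were then lower and 2 higher (8.24% and 10.9% of all genes), so that count rests on them. Among the higher genes Aldh1a2 was lost and Socs2 was added.

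In parental tumours the antibody moved few of these genes, in a comparison where 1.23% of all genes were higher under anti-PD-1 and 2.27% lower. Relb was higher by 0.48 (SE 0.09, limma adjusted p = 0.0241) and Traf1 by 0.93 (SE 0.20, adjusted p = 0.0358), while Cd83 differed by 0.91 (SE 0.29, adjusted p = 0.1). Klf4, a transcription factor of DC2 cells and of many epithelia, was higher by 0.79 (SE 0.19, adjusted p = 0.0462). The chemokine gene Ccl4 was higher by 0.80 (SE 0.19, adjusted p = 0.0436). Of the genes not called, Clec10a differed by 1.61 (adjusted p = 0.109), Mgl2 by -0.86 (adjusted p = 0.118) and Bst2 by 1.43 (adjusted p = 0.126). Cd24a differed by -0.38 (adjusted p = 0.0676). All 4 calls were lost without Sen+IgG 1 and Sen+PD1 3, and Fcer1a was then called lower, where 0.645% of all genes were called, 0.161% higher and 0.484% lower. The list medians in this comparison were 0.34 for mature genes, 0.10 for DC2 genes, 0.17 for plasmacytoid genes and 0 for DC1 genes. Between the antibodies in resistant tumours limma called 0 genes of these lists. An unadjusted p under 0.05 was found for Itgam at -0.55 among the subset lists and for Ccl3 at -0.95 among the ligands described next.

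Of 9 tested ligands that draw or sustain dendritic cells, 5 were lower in resistant tumours under anti-PD-1 and 0 higher. They were Ccl3 at -1.11 (SE 0.37), Ccl4 at -1.04 (SE 0.19) and Ccl5 at -1.75 (SE 0.61), all inflammatory chemokines, Csf2, which encodes GM-CSF, at -1.02 (SE 0.35), and Ifng, the T and NK cell cytokine, at -1.66 (SE 0.47). The list median was -1.02. Without Sen+IgG 1 and Sen+PD1 3, 3 were lower, and Ccl3 and Ccl5 were lost. Xcl1, the ligand of XCR1, differed by 0.07 (SE 0.12, limma adjusted p = 0.684). Under IgG limma called 0 of the 9, and only Ifng had an unadjusted p under 0.05. It differed by -1.20 (SE 0.47, adjusted p = 0.104), and was called lower without those arrays.

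A separate list held growth factor and chemokine receptors of dendritic cells, not matched to those ligands. Of its 6 tested genes, 4 were lower in resistant tumours under anti-PD-1 and 0 higher. Csf2rb and Csf2ra, the chains of the GM-CSF receptor, differed by -1.19 (SE 0.21) and -0.87 (SE 0.18), Csf1r by -1.05 (SE 0.29) and Kit by -0.65 (SE 0.23). Limma called 0 of them under IgG, where Csf2ra alone had an unadjusted p under 0.05 and differed by -0.52 (adjusted p = 0.0758).

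The genes of MHC class II, with which dendritic cells, macrophages and B cells present antigen to CD4 T cells, were the list with the lowest median under anti-PD-1 among the 10 drawn in the plot of lists. Of 8 tested, 7 were lower and 0 higher in resistant tumours, with a median of -1.74. Cd74, the invariant chain, differed by -1.89 (SE 0.41, limma adjusted p = 0.00555), H2-Ab1 by -1.68 (SE 0.40), H2-Aa by -1.70 (SE 0.44), H2-Eb1 by -1.78 (SE 0.45), H2-DMb2 by -1.83 (SE 0.41), H2-DMa by -1.46 (SE 0.46), and Ciita, the class II transactivator, by -1.95 (SE 0.56). H2-DMa was lost without Sen+IgG 1 and Sen+PD1 3. Under IgG Cd74 alone was called, at -1.67 (SE 0.41, adjusted p = 0.0212), with a list median of -1.28, and 5 were lower without those arrays. Tumour cells can make MHC class II under interferon gamma, so these genes do not mark dendritic cells in whole tumour RNA.

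Beside these lists, 4 of 8 leukocyte genes were lower in resistant tumours under anti-PD-1 (median -0.96), Laptm5 at -1.72, Lcp1 at -1.44, Ptprc at -1.35 and Coro1a at -1.18, as was 1 of 14 macrophage genes, Mertk at -0.82 (median -0.30). All 9 skeletal muscle genes had negative differences in that comparison, with a median of -2.30, below that of MHC class II, and 0 were called, while 5 had an unadjusted limma p under 0.05. Their mean ran from 6.69 to 9.98 in Res+PD1 and from 10.17 to 11.99 in Sen+PD1 tumours, and from 10.06 to 10.89 in Res+IgG and 7.21 to 11.42 in Sen+IgG tumours. The part of leukocyte or muscle content in the differences of the dendritic cell lists was not tested.

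**Figure D5:**
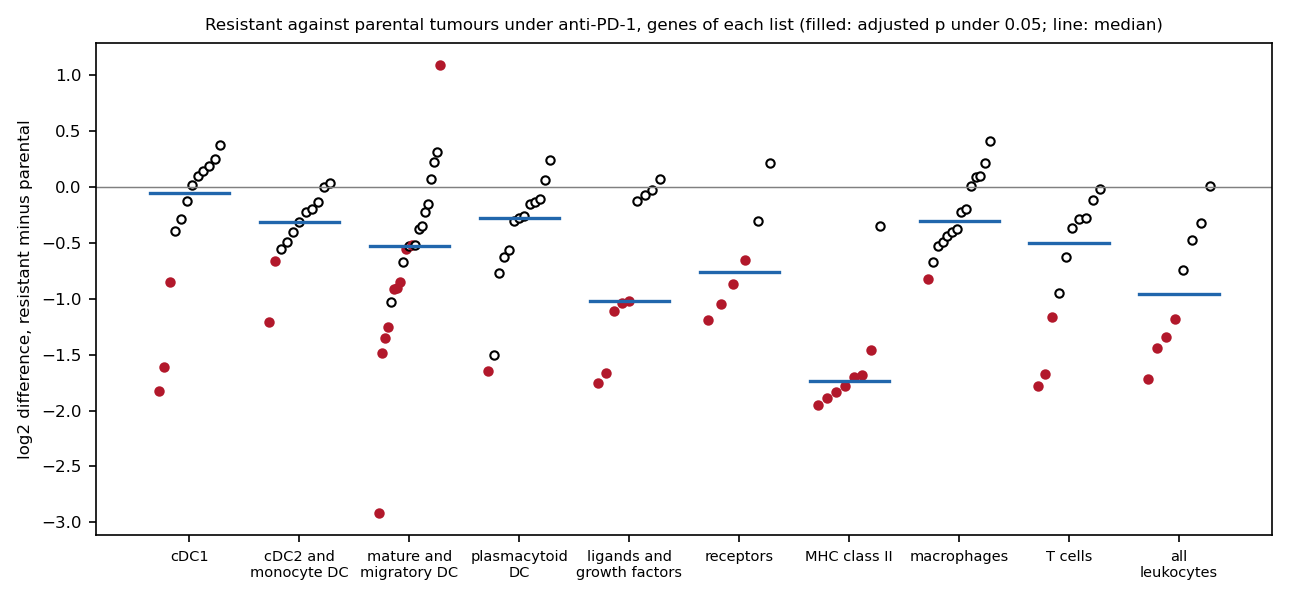
Log2 differences between resistant and parental tumours under anti-PD-1 (y axis) for the genes of 10 lists (x axis); each point is a gene, filled where the adjusted p is under 0.05, and blue lines are list medians. MHC class II has the lowest median at -1.74, ligands follow at -1.02, and Cd274 is the lowest single gene at -2.91.

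Genes whose pattern over the 12 arrays was most like that of a marker were found by Pearson's r after each group's mean was subtracted, searched over 15492 genes, which makes high values likely. For Itgax they were Cytip (r = 0.963), Skap1 (0.958) and Cass4 (0.951). For Ccr7 they were Smarca2 (0.959), Gm14285 (0.921) and Nr0b2 (0.887), and for Batf3 Taf9b (0.976), Taz (0.961) and Mss51 (0.957). Over the 8 markers, the 3 most similar genes of each had r from 0.866 to 0.988. Over all levels, without subtracting group means, Itgax and Cytip gave r = 0.906, whereas Ccr7 and Smarca2 gave 0.232. Genes read on 1 array share its cell content, and these values are descriptions.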

How the data were processed

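Per the labels' protocols, Triazol was used to extract total tumour RNA, and biotin-labelled cRNA was read on Affymetrix whole-genome mouse arrays. The authors deposited log2 expression values for 45101 probe sets, rounded to 2 decimals. Near-equal quantiles show that arrays were normalized against each other. The sources used here do not give the method, nor those of background correction and summarization.

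Of these probe sets, 64 were controls, 34945 had 1 gene symbol, 932 several and 9160 none; only those with 1 were used, and gene numbers matched 34741 of their symbols to a RefSeq table of GRCm38.p6. The probe set with the highest mean stood for a gene, and genes needed 3 arrays above the 25th percentile of the table (3.32). This kept 15493. No identical arrays were found (0 pairs).

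Groups came from the sample titles. Differences were fitted by limma (3.58.1, R 4.3.3) as group means over 12 arrays, with 8 residual and 2.98 prior degrees of freedom. P-values are two-sided and adjusted by Benjamini-Hochberg over all genes of a comparison. Comparisons that share a group share its arrays. Exact permutation tests compared list means, where 3 arrays against 3 cannot go below p = 0.1. The number of arrays limits the precision, and the median SE of a difference was 0.117. The fit was tested on simulated data.

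All markers were named with every probe set, and the 3 genes most like a marker for 3 of them. The rule for the lists was the 3 genes with the smallest p in a comparison and those called. It was followed for the dendritic cell, ligand, receptor and MHC lists between the lines under each antibody; elsewhere the genes called there, or fewer, were named. Ccl17, Ccl22 and Xcl1 were named outside this rule, after their values were seen. Markers and lists were chosen with earlier results of these data known. Alternatives changed the probe set rule, the filter, the scaling, the weights, the variance model and the arrays used. The leukocyte scale, and the list counts without 2 arrays, were added after the data were seen. Titles number the arrays of each group 1 to 3. Same-numbered arrays correlated at -0.208 to 0.636 in their deviations, over 0.1 for 14 of 18 pairs. Their median was 0.199, against -0.119 for arrays of different numbers. Since not all correlated, the numbers were not taken as pairs in the main fit, and a fit with them as a block is an alternative. Of the groups compared with each other, the antibodies in resistant tumours alone had 3 of 3 pairs over 0.1, and there the block changed no marker's call. Res+PD1 with Sen+IgG, which were not compared, had them too. Plots used matplotlib 3.10.9 (Python 3.11.15).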

Additional observations from a re-analysis of the deposited data

How the results depend on the processing

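With 3 arrays a group and no record of which mice lie behind them, the counts of markers called were small and moved by up to 3. Calls over all genes moved with the settings too, so a count given without its share of all genes shows nothing particular to the markers. Resistant against parental tumours under IgG had 1 marker called of 8, against 16.2% of all genes. It had 2 with array weights (5152 of 15493 genes) and 2 with the replicate block. Without Sen+IgG 1 and Sen+PD1 3 it had 2 (19.1% of all genes). It had 0 relative to the leukocyte list (312 genes). When single arrays were left out it had 0 to 1. Under anti-PD-1 it had 2 (33.5% of all genes), and 3 with the replicate block. Without the same pair of arrays it had 3 (31.6%). It had 1 with the filter at the median of all values, where Ccr7 was not tested. Relative to the leukocyte list it had 1, which was Siglech, against 9997 of 15493 genes. When single arrays were left out it had 1 to 2. Averaged over the antibodies it had 1 (40.3% of all genes), and 4 with array weights and 3 with the replicate block. Without the same pair of arrays it had 3 (42.1%). Relative to the leukocyte list it had 3, with Itgax lower and Flt3 and Siglech higher in resistant tumours. When single arrays were left out it had 1 to 3. Anti-PD-1 against IgG in parental tumours had 0, and 0 to 1 when single arrays were left out. The other settings left these counts as they were, and the antibody comparison in resistant tumours and the interaction stayed at 0 in every setting run.

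Same-numbered arrays did not all correlate, so the replicate block is given here only. With it, Cd209a was called between the lines under IgG at 0.27 (limma adjusted p = 0.0438), Batf3 under anti-PD-1 at -0.62 (adjusted p = 0.0437) and on average at -0.47 (adjusted p = 0.0311), and Fscn1 on average at -0.23 (adjusted p = 0.0239), and no other call of a marker changed.

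Of 1118 recomputed differences of the markers, 22 gained and 9 lost a call and 0 changed sign where either setting called them. Another 70 changed sign with a call under neither, 23 of them relative to the leukocyte list. Calls over all genes ran from 312 (leukocyte list) to 5152 (array weights) between the lines under IgG. They ran from 3826 (without Res+PD1 2) to 9997 (leukocyte list) under anti-PD-1. On average they ran from 5282 (without Res+IgG 2) to 11696 (single probe sets, of 28634). For the antibodies they ran from 0 (only the arrays compared) to 918 in parental tumours, with 100 without Sen+IgG 1 and Sen+PD1 3, and from 0 to 23 in resistant tumours. The interaction had up to 121. The cause was not tested.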

Other observations

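Among arrays of the same group, some markers varied together and some against each other. After each group's mean was subtracted, the 28 pairs of the 8 tested markers had Pearson's r from -0.79 to 0.68 over the 12 arrays, with a median of 0.03, as a description with no test. The highest were Ccr7 with Zbtb46 at 0.68 and Itgax with Batf3 at 0.67, and 5 pairs exceeded 0.5. Another 3 lay below -0.5, all with Fscn1, which gave -0.79 with Batf3, -0.62 with Flt3 and -0.52 with Itgax.

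Lymphocyte and granulocyte genes gave further values beside the ligands. Under anti-PD-1, 21.6% of all genes were called higher in resistant tumours and 11.9% lower. Gzma, the granzyme A of NK and T cells, was lower there, with a difference of -1.66 (SE 0.55, limma adjusted p = 0.0393). It was the only call among 6 NK cell genes. Cxcr2, a chemokine receptor of neutrophils, was lower with a difference of -0.49 (SE 0.16, adjusted p = 0.0385), the only call among 5 neutrophil genes. The 6 B cell genes had a median of 0.06. Under IgG, the macrophage genes Cd163 and Mrc1, both scavenger receptors, were higher in resistant tumours, while Itgax was lower in the same arrays. The 2 genes differed by 1.83 (SE 0.27, limma adjusted p = 0.00155) and 0.65 (SE 0.18, adjusted p = 0.0316). They were the only 2 called of 14 macrophage genes, against 16.2% of all genes. Of the 14 differences, 8 were positive and 6 negative.

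Some genes of tissue and tumour cells were called too, and the share of all genes called is given beside them. In resistant tumours under anti-PD-1, the epithelial genes Krt18 and Cldn4, a keratin and a tight junction protein, were lower by limma. They differed by -0.36 (adjusted p = 0.0094) and -1.28 (adjusted p = 0.0115), and Krt19, another keratin, was higher at 0.55 (adjusted p = 0.0346). This is 3 of 9 called, against 33.5% of all genes. Of 7 fibroblast genes Pdgfrb alone, a growth factor receptor, was called in that comparison, lower at -0.67 (adjusted p = 0.0425). Under IgG, where 16.2% of all genes were called, Krt18 and Epcam, an adhesion molecule, were the 2 of 9 epithelial genes called. They were lower at -0.38 (adjusted p = 0.0159) and -1.54 (adjusted p = 0.0354). Emcn, an endothelial sialomucin, was higher at 1.59 (adjusted p = 0.0161), the only call among 7 endothelial genes. Adipoq, the adipocyte hormone, was higher at 3.99 (SE 1.11, adjusted p = 0.0343), the only call among 5 adipocyte genes.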
